A study of Homo sapiens with 18 samples.

Results

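RNAs named with the prefix LINC and a number, the systematic name for long intergenic noncoding transcripts, were followed in 3 human pancreatic cancer cell lines treated with THZ1. The set holds the 67 such symbols whose mean raw count over the 3 libraries of a group was at least 30 in 1 or more of 6 groups, out of 876 LINC-numbered symbols and 26485 symbols in all. The groups were BxPC3, Panc327 and SUIT2 cells, each given 100 nM THZ1 for 6 h or DMSO, the solvent, for the same time, with 3 libraries per group. THZ1 binds covalently to CDK7, a kinase that acts on RNA polymerase II early in transcription, and also to CDK12 and CDK13. All 6 groups are cultured tumour lines with no other alteration named in the labels, and nothing in the labels states that a group's libraries are independent cultures. The p-values therefore speak only to variation among libraries, which may be technical. The series title asks about resistance to transcriptional inhibition and the stress-response role of SIRT6, but no library here had SIRT6 altered according to the labels.

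Long noncoding RNAs are made by RNA polymerase II, and most are capped, spliced and polyadenylated like messenger RNAs. Many are short-lived and are removed in the nucleus by the RNA exosome and its adaptors, while a few, such as NORAD, are abundant and stable in the cytoplasm. Some transcripts first filed as noncoding were later found to encode very short proteins, and others start beside the promoter of a protein-coding gene and run away from it. When transcription is blocked, an existing RNA is lost at the pace of its own decay.

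All 67 members passed the filter on low counts and entered the fit, 49 of them matched RefSeq by symbol and 18 by an older symbol. The noncoding part of the class name held for most: RefSeq lists 60 as lncRNA, 6 as protein-coding and LINC01296 as a transcribed pseudogene, DUXAP9. The intergenic part did not hold for all. GENCODE 29 types LINC00649, LINC00685 and LINC01137 as antisense, and LINC00294 lies inside the bounds of TCP11L1. The 67 members lie on 22 chromosomes, with 8 on chromosome 1. Of 61 members matched to GENCODE 29, exons of 30 overlapped exons of another annotated gene, and since the library kit does not mark strand and the counting mode is not given, counts of those 30 are uncertain. The overlap is not repeated below for each of the 30, LINC00472, LINC00667, LINC01106 and LINC01128 among them. The summed exons of a member had a median of 3764 bases, between 428 and 17693.

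Promoter windows, 250 bases before to 50 after the annotated start, were in the RefSeq table (GRCh38.p14) for 47 members. Those of 7 members that were called with THZ1 in both BxPC3 and Panc327 are printed to show how different the starts of these RNAs are. They are LINC00339 (chr1:22024941-22025240, plus strand), LINC00346 (chr13:110870259-110870558, minus strand), LINC00909 (chr18:74597786-74598085, minus strand) and LINC00657 (chr20:36050911-36051210, minus strand), which were lower with THZ1. LINC00662 (chr19:27793891-27794190, minus strand), LINC01089 (chr12:121802897-121803196, minus strand) and LINC00152 (chr2:87455177-87455476, plus strand) were higher. Capitals mark the 6 motifs searched on both strands, which are the TATA box (TATAAA), the GC box (GGGCGG), the CCAAT box (CCAAT), the E-box (CACGTG), the AP-1 site (TGANTCA) and the ETS core (CCGGAA), with overlapping matches counted.
LINC00339: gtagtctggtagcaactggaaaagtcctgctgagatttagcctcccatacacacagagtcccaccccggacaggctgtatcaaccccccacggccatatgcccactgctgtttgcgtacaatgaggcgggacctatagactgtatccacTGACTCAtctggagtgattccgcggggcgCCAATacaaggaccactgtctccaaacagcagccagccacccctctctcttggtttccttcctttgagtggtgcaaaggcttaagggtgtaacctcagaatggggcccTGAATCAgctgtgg
LINC00346: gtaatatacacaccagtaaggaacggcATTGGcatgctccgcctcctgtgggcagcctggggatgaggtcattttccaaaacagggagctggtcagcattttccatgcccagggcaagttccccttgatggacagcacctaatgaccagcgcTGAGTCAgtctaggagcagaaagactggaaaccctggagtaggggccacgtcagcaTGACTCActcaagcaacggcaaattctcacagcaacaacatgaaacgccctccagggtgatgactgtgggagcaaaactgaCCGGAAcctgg
LINC00909: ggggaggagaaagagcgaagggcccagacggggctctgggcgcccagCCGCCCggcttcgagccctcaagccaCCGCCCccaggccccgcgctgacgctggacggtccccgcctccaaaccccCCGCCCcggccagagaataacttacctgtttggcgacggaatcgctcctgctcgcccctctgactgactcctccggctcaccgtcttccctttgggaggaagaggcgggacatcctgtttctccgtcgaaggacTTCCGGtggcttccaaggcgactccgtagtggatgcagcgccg
LINC00657: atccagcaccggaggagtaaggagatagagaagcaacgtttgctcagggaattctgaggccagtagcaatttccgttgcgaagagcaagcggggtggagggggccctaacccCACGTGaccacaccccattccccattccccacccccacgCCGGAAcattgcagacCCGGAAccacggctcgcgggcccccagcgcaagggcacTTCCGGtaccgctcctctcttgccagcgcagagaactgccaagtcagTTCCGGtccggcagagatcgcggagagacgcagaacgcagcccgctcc
LINC00662: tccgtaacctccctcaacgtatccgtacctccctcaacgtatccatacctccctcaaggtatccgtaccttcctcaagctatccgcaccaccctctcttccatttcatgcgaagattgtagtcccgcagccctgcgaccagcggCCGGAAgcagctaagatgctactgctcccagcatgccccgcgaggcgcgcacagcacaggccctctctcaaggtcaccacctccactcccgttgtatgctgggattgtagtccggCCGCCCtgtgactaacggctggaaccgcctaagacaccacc
LINC01089: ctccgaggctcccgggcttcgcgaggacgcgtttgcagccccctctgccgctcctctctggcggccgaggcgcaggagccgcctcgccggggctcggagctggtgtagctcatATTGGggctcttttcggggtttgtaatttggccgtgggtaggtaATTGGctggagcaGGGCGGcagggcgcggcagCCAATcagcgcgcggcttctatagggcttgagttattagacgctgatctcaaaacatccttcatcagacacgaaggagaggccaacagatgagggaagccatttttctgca
LINC00152: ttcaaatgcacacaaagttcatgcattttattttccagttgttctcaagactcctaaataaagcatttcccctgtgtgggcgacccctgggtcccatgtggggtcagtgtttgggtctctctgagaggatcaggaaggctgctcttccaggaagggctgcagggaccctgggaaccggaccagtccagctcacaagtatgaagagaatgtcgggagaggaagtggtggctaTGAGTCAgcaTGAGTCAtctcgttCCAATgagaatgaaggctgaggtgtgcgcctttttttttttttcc

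Among these windows LINC00909 held 3 GC boxes and 28 CG dinucleotides, LINC00657 held 4 ETS cores and an E-box, and LINC01089 held 3 CCAAT boxes. AP-1 letters stood 2 times each in LINC00339, LINC00346 and LINC00152, of which LINC00339 and LINC00346 were lower and LINC00152 higher with THZ1. Over the 47 member windows the GC box was present in 51.1%, against 44.6% of all 27305 RefSeq windows of this length, the CCAAT box in 46.8% against 35.7%, and the ETS core in 27.7% against 17.6%. The AP-1 letters were present in 12.8% of member windows against 7.76% of all windows, the E-box in 8.51% against 7.43% and the TATA box in 8.51% against 12%. The median G+C content of a member window was 62.7%, against 58.3% of all windows. A match is a run of letters and not a measured binding site, and these shares got no test.

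Gene counts per library lay between 5626146 and 8631273, and levels are given as CPM, counts scaled by library total after TMM normalization. All 7 epithelial carcinoma markers, EPCAM and keratins among them, had counts in every group and summed to 6479 to 10080 CPM in THZ1 groups of BxPC3 and Panc327, against 4685 to 6444 CPM with DMSO. In SUIT2 they summed to 7356 to 8181 CPM with THZ1 and 7049 to 7423 CPM with DMSO. KRT19 was lower with THZ1 in Panc327 (-0.22 ± 0.04, edgeR adjusted p = 4.21e-06), where 6 of the list were higher. With DMSO, CDH1 and KRT7 averaged 27.3 and 13.6 CPM in SUIT2, against 678.3 and 1546 CPM in BxPC3. MUC1 was low, at 4.41 CPM in BxPC3 and 1.96 CPM in Panc327 with DMSO. Of the 15 fibroblast, leukocyte, endothelial and acinar markers, summed levels stayed at or below 74.5 CPM for each list. DCN and PTPRC were at 0 in all 6 and in 5 of the 6 groups, but other markers on these lists were present. COL1A1 averaged 70.1 CPM with THZ1 and 49.4 CPM with DMSO in Panc327, where VWF had 18.6, 18.2 and 16.4 CPM with THZ1. CD68 averaged 43.3 CPM with THZ1 and 44.9 CPM with DMSO in SUIT2. The leukocyte list summed there to 41.2 to 45.5 CPM with THZ1 and 42.1 to 48.6 CPM with DMSO. The fibroblast list summed to 14.8 to 19.8 CPM with THZ1 and 7.79 to 11.9 CPM with DMSO in BxPC3, and the leukocyte list to 34.5 to 38.9 CPM with THZ1 and 21.2 to 22.3 CPM with DMSO. In Panc327 the fibroblast list summed to 63.9 to 74.5 CPM with THZ1 and 48.2 to 51.0 CPM with DMSO, the leukocyte list to 20.7 to 26.7 CPM and 9.28 to 9.97 CPM, and the endothelial list to 16.6 to 18.6 CPM and 12.2 to 13.6 CPM. The part of these markers in the member values was not tested. The share of records that aligned to several places was 22.8% ± 0.81 with THZ1 and 12.8% ± 0.61 with DMSO in BxPC3, 52.8% ± 1.81 and 13.6% ± 0.15 in Panc327 (SD, n = 3). In SUIT2 it was 12.9% ± 0.90 with THZ1 and 13.2% ± 0.73 with DMSO. The exact two-sided permutation p was 0.1 in BxPC3 and in Panc327, the smallest that 3 against 3 libraries allow, and 0.7 in SUIT2. The part of this shift in the member values of BxPC3 and Panc327 was not tested.

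The 67 members together held a small share of each library. They took 0.0813% ± 0.0023 of gene counts with THZ1 and 0.134% ± 0.0026 with DMSO in BxPC3, 0.0775% ± 0.00015 and 0.110% ± 0.0018 in Panc327 (SD, n = 3). In SUIT2 they took 0.106% ± 0.0042 with THZ1 and 0.112% ± 0.0046 with DMSO. A single RNA, LINC00657, accounted for much of that, with 0.0268% with THZ1 and 0.0690% with DMSO in BxPC3. Without it, the others held 0.0546% ± 0.00028 with THZ1 and 0.0654% ± 0.0016 with DMSO in BxPC3, 0.0606% ± 0.0011 and 0.0729% ± 0.00064 in Panc327, and 0.0561% ± 0.00099 and 0.0606% ± 0.00072 in SUIT2. These shares describe members that the counts themselves selected, and a share can also move because counts of other genes change. In bulk RNA, fewer cells with these RNAs cannot be told apart from less of them per cell.

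The members were chosen by their raw counts in these same libraries. The floor of 30 counts was reached in BxPC3 by 54 members, in Panc327 by 48 and in SUIT2 by 40. Of the 67, 31 reached it in all 3 lines, 13 in 2 lines and 23 in 1 line, and 20 reached it in all 6 groups. It was reached only with THZ1 by 4 members (LINC00685, LINC00926, LINC01003 and LINC01138), only with DMSO by 21, and with both by 42. The floor is on raw counts, which follow library size. Mean gene counts per library were 7078399 with THZ1 and 8037102 with DMSO in BxPC3, and 6054643 and 8483816 in Panc327. In SUIT2 they were 7566449 and 7642335. The part of library size in this split was not tested, and it has no share over all genes beside it. Just inside the floor stood LINC00707 and LINC01605 with a highest group mean of 30 counts and LINC01391 with 31.7, and just outside stood LINC00476 and LINC01004 with 28.7 and LINC01176 with 28.3. Since counts chose the members, THZ1 calls in a line are counted below only over members that reached the floor in another line, and members present through the compared line alone are described without a test.

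In BxPC3, THZ1 moved LINC transcripts both ways. Of the 57 members chosen without BxPC3, 16 were higher with THZ1 (28.1%) and 19 were lower (33.3%) by edgeR's quasi-likelihood test at an adjusted p under 0.05, where 35.2% of the 14011 genes tested were higher and 34.1% lower. The median log2 fold change of these members was 0.00, as for all genes tested. In Panc327, 19 of 58 were higher (32.8%) and 19 lower (32.8%), where 35.6% of all genes were higher and 37.8% lower, with a median of 0.07 for members and -0.01 for all genes. Both lines therefore gave member shares near or under those of all genes. Scaling by library size alone turned the BxPC3 split to 10 higher and 27 lower and the Panc327 split to 13 higher and 22 lower. Of all genes called with that scaling, 26.8% were higher in BxPC3 and 31.0% in Panc327. It shifted the median of all genes by -0.35 in BxPC3 and -0.32 in Panc327 on the log2 scale, so each direction below is relative to the median gene.

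In SUIT2 few members were called, and nearly all of those were lower. Of 63 members chosen without SUIT2, 1 was higher (1.59%) and 10 were lower (15.9%), where 6.95% of all genes were higher and 7.64% lower. The median was -0.07 for members and 0.01 for all genes. Of the 10 lower calls, 4 to 6 were left when any 1 SUIT2 library was omitted, so the share of lower calls in SUIT2 is not stable. Such a fit also has fewer libraries, and the part of the omitted library itself was not tested.

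**Figure D1:**
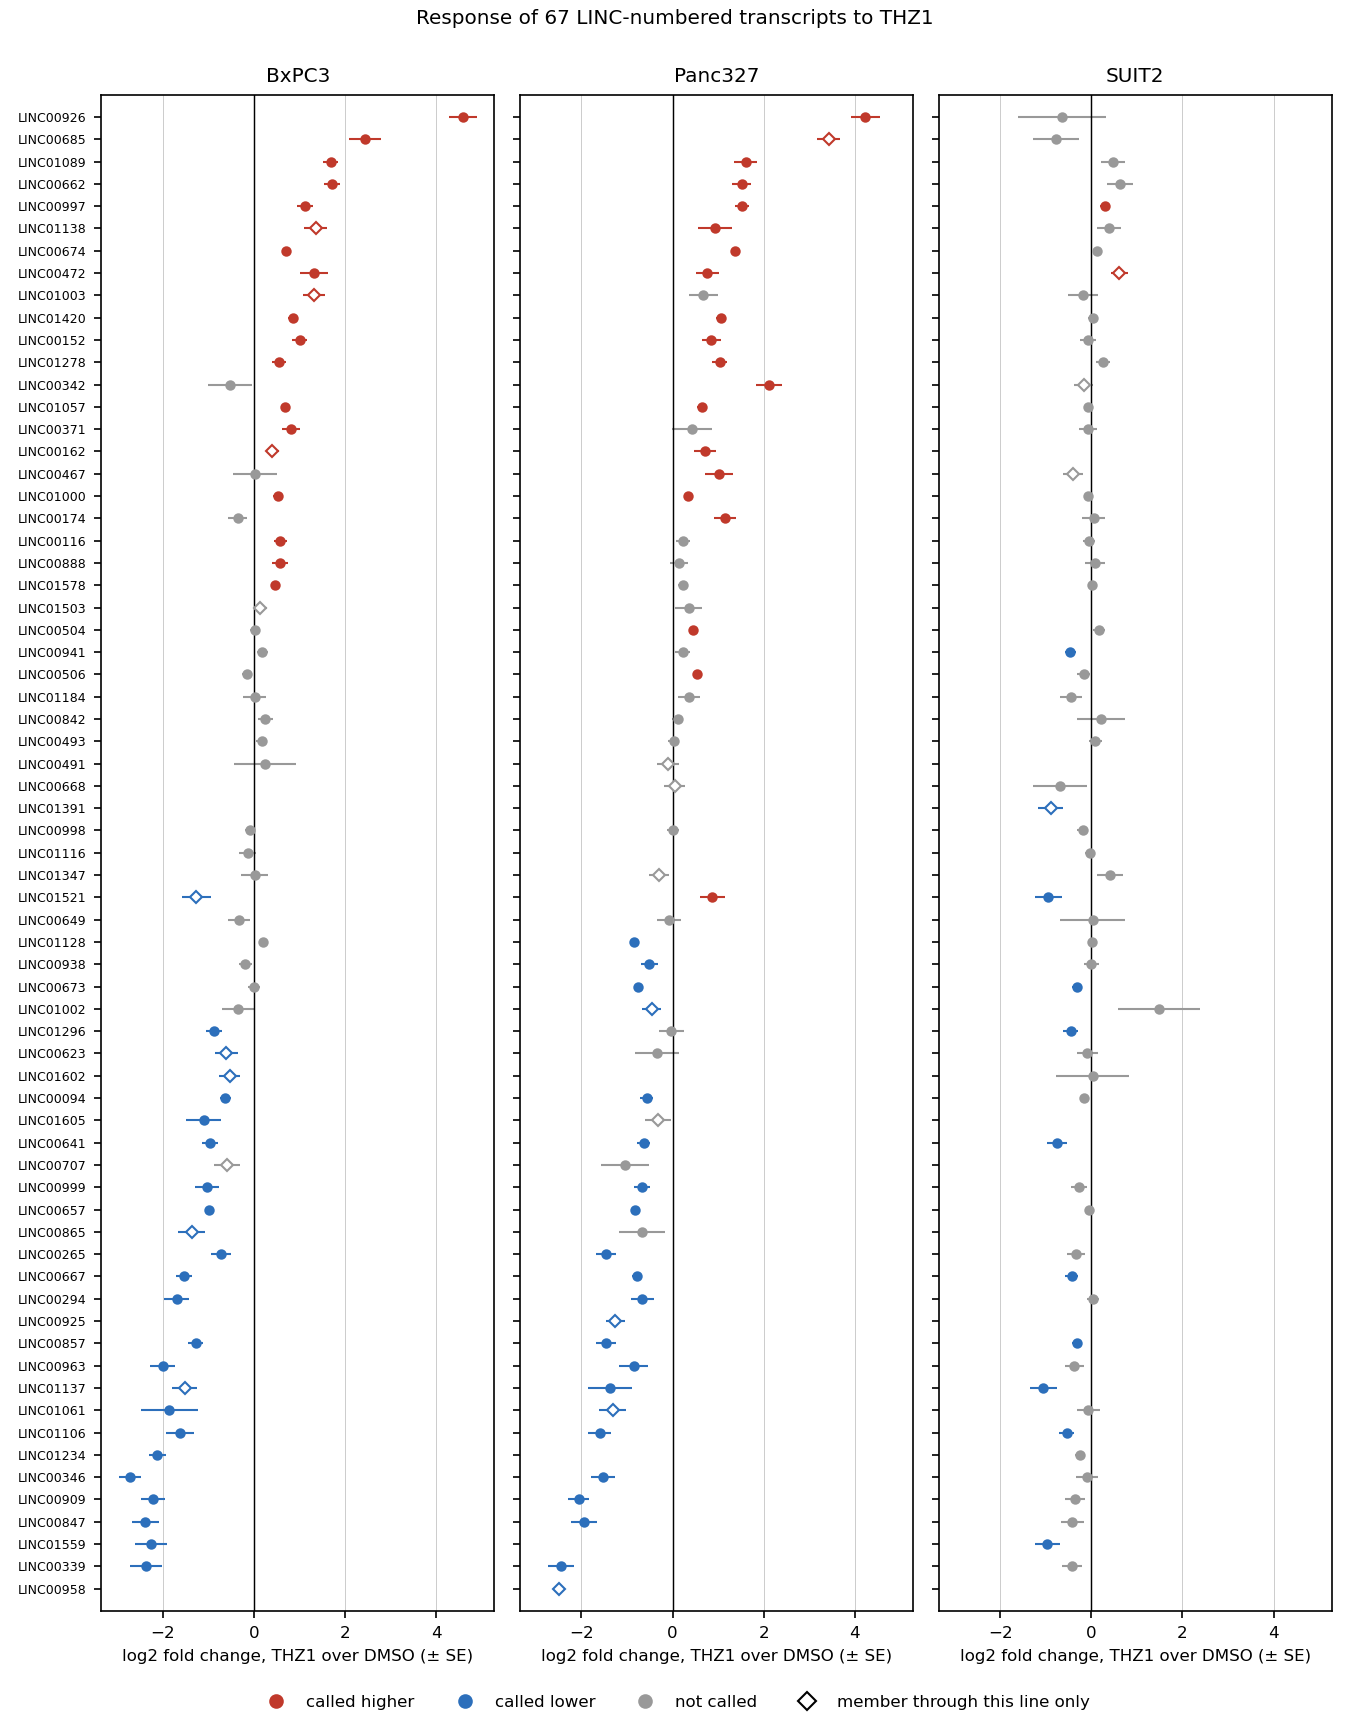
Log2 fold change of each member with THZ1 over DMSO (x axis, bars are SE) in BxPC3, Panc327 and SUIT2, ordered by the mean over BxPC3 and Panc327, with called members in red or blue, the rest in grey and members present through that line alone as open diamonds. Members with 0 counts in a group, or no more than 3 in both, are not drawn (4, 5 and 8 in BxPC3, Panc327 and SUIT2). Values spread from -2.72 to 4.58 in BxPC3, while most SUIT2 points lie closer to 0.

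The largest rise in both BxPC3 and Panc327 was of LINC00926, a spliced RNA of chromosome 15 (chr15:57300365-57307769, plus strand) that starts 1084 bases after the end of TCF12. Its levels were 10.7, 10.4 and 10.6 CPM with THZ1, against 0.609, 0.452 and 0.228 CPM with DMSO in BxPC3. In Panc327 they were 8.33, 7.66 and 9.47 CPM with THZ1, against 0.443, 0.643 and 0.218 CPM with DMSO. The groups were far apart in both lines, and raw counts summed to 183 with THZ1 and 11 with DMSO in BxPC3, and to 133 with THZ1 and 12 with DMSO in Panc327. Log2 fold changes were 4.58 ± 0.31 (edgeR adjusted p = 6.56e-25) and 4.23 ± 0.32 (edgeR adjusted p = 1.07e-21). In SUIT2 it had 3 counts over 3 libraries with THZ1 and 5 with DMSO, which is close to no signal. The response was higher by 5.22 ± 1.2 in BxPC3 than in SUIT2 (edgeR adjusted p = 1.09e-04) and by 4.87 ± 1.19 in Panc327 than in SUIT2 (edgeR adjusted p = 2.14e-04), with SUIT2 values that rest on these few counts. It reached the floor with THZ1 in both BxPC3 and Panc327 and never with DMSO, so each line's test has its membership from the other line's THZ1 libraries.

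TCF12, the basic helix-loop-helix factor gene just upstream on the same strand, had no call in BxPC3. It stood at 77.4, 77.6 and 79.1 CPM with THZ1, against 78.9, 80.4 and 78.5 CPM with DMSO in BxPC3, so its groups overlapped, and the log2 fold change was -0.02 ± 0.06 (edgeR adjusted p = 0.771). In Panc327 TCF12 fell slightly, by 0.16 ± 0.07 on the log2 scale (edgeR adjusted p = 0.029). Over the 6 group means, the members most like LINC00926 were LINC00662 (r = 0.956), LINC01420 (r = 0.936) and LINC00685 (r = 0.923) by Pearson correlation of log2(CPM + 0.5), a description over 6 points that share the contrast of treatment.

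LINC00685, in the pseudoautosomal end of the X chromosome (chrX:319145-321332), had 3.38, 4.42 and 4.32 CPM with THZ1, against 1.22, 0.339 and 0.683 CPM with DMSO in BxPC3. It rose there by 2.43 ± 0.35 (edgeR adjusted p = 1.7e-09). In Panc327, the line through which it became a member, it had 9.02, 11.8 and 14.0 CPM with THZ1, against 0.665, 1.29 and 1.2 CPM with DMSO. It reached the floor in no group but Panc327 with THZ1, so the BxPC3 test has its membership from those THZ1 libraries. The groups were separate in both lines, whereas in SUIT2 it stood lower with THZ1 (0.560, 0.406 and 0.579 CPM) than with DMSO (0.729, 1.1 and 0.884 CPM) with no call (edgeR adjusted p = 0.33).

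Several further members were called higher in both BxPC3 and Panc327. LINC00662 had 11.6, 12.7 and 14.6 CPM with THZ1, against 3.29, 4.07 and 4.44 CPM with DMSO in BxPC3, a rise of 1.72 ± 0.18 (edgeR adjusted p = 1.2e-14). In Panc327 its levels were 10.2, 8.69 and 7.50 CPM with THZ1, against 2.55, 3.54 and 3.17 CPM with DMSO, a rise of 1.52 ± 0.21 (edgeR adjusted p = 3.59e-10). THZ1 and DMSO libraries did not overlap in either line. LINC01089 rose by 1.69 ± 0.17 in BxPC3 and 1.61 ± 0.25 in Panc327 (edgeR adjusted p = 3.01e-15 and 2.11e-08). Exons of LINC01089 overlap those of 3 genes, RHOF among them, and exons of LINC00662 overlap AC006504.5 and AC006504.7. LINC00674 reached 116.1, 131.2 and 112.1 CPM with THZ1, against 43.5, 50.7 and 44.0 CPM with DMSO in Panc327. Its log2 change there, 1.38 ± 0.07, was larger than the 0.71 ± 0.10 in BxPC3 by a test of the difference, -0.66 ± 0.12 for BxPC3 minus Panc327 (edgeR adjusted p = 2.34e-06).

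LINC00997, a single-exon RNA of chromosome 7, was called higher with THZ1 in all 3 lines. With THZ1 it had 13.0, 10.4 and 10.3 CPM in BxPC3, 17.7, 16.3 and 19.1 CPM in Panc327 and 30.1, 29.3 and 28.7 CPM in SUIT2. With DMSO it had 4.75, 3.96 and 6.72 CPM, 4.77, 6.54 and 7.20 CPM, and 24.4, 23.7 and 23.9 CPM in the same order of lines. The groups were separate in each line, and the rises were 1.12 ± 0.17, 1.52 ± 0.15 and 0.29 ± 0.10 (edgeR adjusted p = 9.88e-09, 6.08e-16 and 0.0261). The SUIT2 call was lost without any 1 of 5 of its 6 libraries, where the value ranged between 0.27 and 0.30. Its exon overlaps DPY19L1P1, a pseudogene, so reads of the 2 cannot be told apart. LINC00472 rose by 1.33 ± 0.30 in BxPC3 and 0.76 ± 0.25 in Panc327 (edgeR adjusted p = 6.77e-05 and 0.00515). In SUIT2, the line that made it a member, it had 6.05, 10.7 and 6.83 CPM with THZ1 and 5.59, 5.49 and 4.09 CPM with DMSO, again without overlap.

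**Figure D2:**
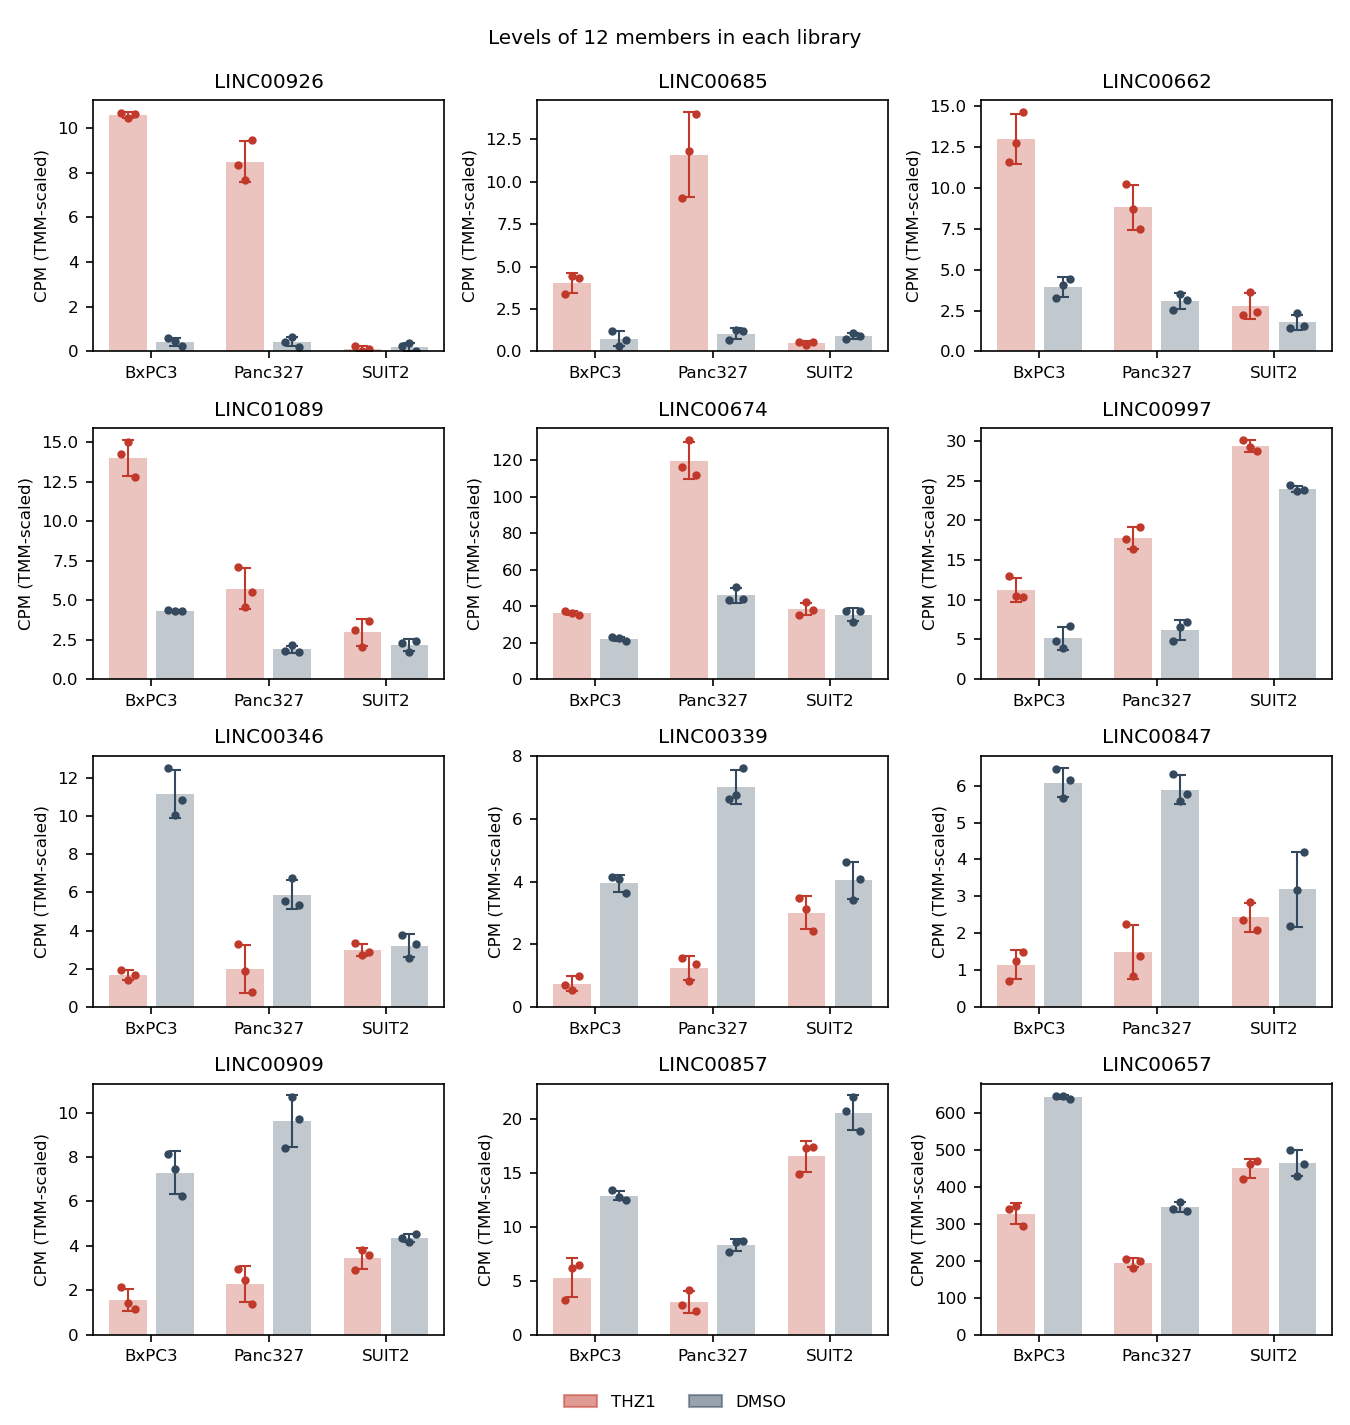
Level of 12 members in each library (y axis, TMM-scaled CPM, from 0), with THZ1 in red left of DMSO in grey in each line; bars are means of 3 libraries, whiskers SD and points libraries. LINC00926 stands at 7.66 to 10.7 CPM with THZ1 in BxPC3 and Panc327 and below 0.7 CPM with DMSO, while the lower panels show falls that are large in those lines and small in SUIT2.

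The deepest fall in BxPC3 was in LINC00346 (PRECSIT), an RNA linked to STAT3 activation in squamous carcinoma. Its levels were 1.96, 1.41 and 1.66 CPM with THZ1, against 12.5, 10.1 and 10.8 CPM with DMSO, a fall of 2.72 ± 0.24 on the log2 scale (edgeR adjusted p = 4.88e-18). In Panc327 it had 3.30, 1.86 and 0.789 CPM with THZ1, against 5.54, 6.75 and 5.35 CPM with DMSO, and it fell by 1.52 ± 0.27 (edgeR adjusted p = 4.07e-07). All THZ1 libraries lay below all DMSO libraries in both lines, and SUIT2 gave -0.10 ± 0.25 with no call (edgeR adjusted p = 0.858).

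LINC00339 and LINC00909 fell about as far in both lines. LINC00339 had 0.711, 0.530 and 0.997 CPM with THZ1, against 4.14, 4.07 and 3.64 CPM with DMSO in BxPC3, and 1.56, 0.828 and 1.38 CPM with THZ1 against 6.65, 6.75 and 7.64 CPM with DMSO in Panc327. The falls were 2.37 ± 0.35 and 2.44 ± 0.28 (edgeR adjusted p = 4.17e-09 and 4.15e-13), and its exons overlap other noncoding genes. LINC00909, which RefSeq names ZNF407-AS1, fell by 2.21 ± 0.26 and 2.06 ± 0.23 (edgeR adjusted p = 1.74e-12 and 1.49e-13). LINC00847 fell by 2.38 ± 0.30 in BxPC3 and 1.93 ± 0.29 in Panc327 (edgeR adjusted p = 1.52e-11 and 3.81e-09), with exons that overlap HEIH, another noncoding gene. In SUIT2 these 3 had log2 changes of -0.43, -0.35 and -0.42 without a call, and the difference from SUIT2 was called for each in both other lines.

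LINC01234 and LINC01559 showed falls in BxPC3 beside a different picture elsewhere. LINC01234 had 2.31, 4.07 and 2.66 CPM with THZ1, against 14.4, 13.8 and 11 CPM with DMSO in BxPC3, a fall of 2.11 ± 0.19 (edgeR adjusted p = 3.25e-17). In Panc327 it was barely present, with 0 counts with THZ1 and 6 with DMSO over 3 libraries, so no fold is given. Its call there (edgeR adjusted p = 0.0326) was lost without DMSO library 2 or any 1 of the 3 THZ1 libraries, with adjusted p between 0.0704 and 0.0824. LINC01559 fell by 2.26 ± 0.35 in BxPC3 (edgeR adjusted p = 2.29e-08) and had 0 counts in every Panc327 library. In SUIT2 it fell by 0.96 ± 0.27 (edgeR adjusted p = 0.00907), and by 0.80 without DMSO library 3 and 0.67 without THZ1 library 1, each time without a call.

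LINC00657, called NORAD, is a cytoplasmic RNA needed for genome stability. It was the most abundant member per length, with a mean of 75.8 CPM per kilobase of exon. With THZ1 it had 339.8, 349.3 and 295.9 CPM in BxPC3 and 204.9, 180.8 and 199.1 CPM in Panc327. With DMSO it had 646.5, 646.4 and 637.7 CPM in BxPC3 and 340.4, 360.8 and 334.5 CPM in Panc327. The groups were separate in both lines, and the falls were 0.97 ± 0.05 and 0.82 ± 0.06 (edgeR adjusted p = 3.32e-19 and 7.12e-16). SUIT2 stood at 421.7, 462.7 and 469.9 CPM with THZ1, against 501.2, 430.7 and 462.7 CPM with DMSO, and its groups overlapped (log2 fold change -0.04 ± 0.05, edgeR adjusted p = 0.64).

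Of the 40 members that reached the floor in SUIT2, LINC00641, LINC00667, LINC00857 and LINC01106 were called lower in each line. LINC01137, outside those 40, is described with its neighbour gene. LINC00857 had 3.20, 6.19 and 6.48 CPM with THZ1, against 13.4, 12.8 and 12.5 CPM with DMSO in BxPC3, and 14.9, 17.3 and 17.4 CPM with THZ1 against 20.8, 22.1 and 18.9 CPM with DMSO in SUIT2. The groups were separate, and the falls were 1.27 ± 0.17 in BxPC3, 1.47 ± 0.22 in Panc327 and 0.32 ± 0.11 in SUIT2 (edgeR adjusted p = 2.11e-10, 6.66e-09 and 0.041). LINC00641 fell by 0.96 ± 0.17, 0.63 ± 0.14 and 0.75 ± 0.21 in the same order of lines. Each of these 4 SUIT2 calls was lost without at least 1 SUIT2 library; for LINC00641 the fall was 0.62 without DMSO library 1, 0.66 without DMSO library 3 and 0.61 without THZ1 library 1, and LINC00641 groups overlapped there. For LINC00667 the SUIT2 fall of 0.42 ± 0.14 was 0.24 without THZ1 library 2 and 0.40 to 0.43 without DMSO library 1, DMSO library 3 or THZ1 library 3. LINC00857 lost the call without DMSO library 1 or 2 or THZ1 library 1 or 2 (0.24 to 0.35), and LINC01106 without DMSO library 1 or 3 or THZ1 library 1 or 2 (0.40 to 0.55). Of the 11 SUIT2 calls among members chosen without SUIT2, 10 were lost without at least 1 SUIT2 library, a count with no share over all genes beside it. The one that held without each library in turn was LINC00941, with 14.9, 13.3 and 14.2 CPM with THZ1 and 20.6, 20.02 and 17.9 CPM with DMSO. It fell by 0.46 ± 0.11 (edgeR adjusted p = 0.00235), and in BxPC3 and Panc327 it had changes of 0.19 and 0.22 without a call.

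The calls of BxPC3 and Panc327 were set side by side. Of the 40 members that reached the floor in SUIT2, and so were chosen without either line, 13 were lower in both, 8 higher in both, 0 opposite and 6 called in neither. Among all 14011 genes 26.3% were lower in both, 26.1% higher in both, 4.34% opposite and 13.9% called in neither. By the test of the difference of responses, 2 of these 40 were higher in BxPC3 than in Panc327 and 8 lower, where 22.2% of all genes were higher and 14.1% lower. Against SUIT2, the response of BxPC3 was higher for 13 and lower for 12 of 48 members (all genes 27.3% and 27.6%). The response of Panc327 against SUIT2 was higher for 15 and lower for 12 of 54 (all genes 28.3% and 32.4%). The comparisons with SUIT2 share its 6 libraries.

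LINC01128, on chromosome 1, differed between BxPC3 and Panc327. It had 16.7, 20.7 and 20.1 CPM with THZ1, against 33.1, 32.8 and 36.1 CPM with DMSO in Panc327, and fell by 0.84 ± 0.11 (edgeR adjusted p = 1.95e-11). In BxPC3 it had 30.4, 31.3 and 22.8 CPM with THZ1, against 23, 26.01 and 23.7 CPM with DMSO, and the groups overlapped. The response was higher in BxPC3 than in Panc327 by 1.05 ± 0.15 (edgeR adjusted p = 4.95e-09). LINC00673, an RNA of chromosome 17 reported to act on the phosphatase PTPN11 in pancreatic cancer, likewise fell in Panc327, to 43.4, 38.3 and 41.4 CPM with THZ1, against 71.8, 72.9 and 63.9 CPM with DMSO. Its change was -0.76 ± 0.08 in Panc327 and 0.00 ± 0.13 in BxPC3, a difference of 0.76 ± 0.16 (edgeR adjusted p = 3.64e-05).

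LINC00342 showed the reverse. It had 5.03, 4.55 and 5.72 CPM with THZ1, against 1.11, 1.5 and 0.873 CPM with DMSO in Panc327, and rose by 2.12 ± 0.29 (edgeR adjusted p = 4.49e-10). BxPC3 stayed between 0.498 and 1.24 CPM in all 6 libraries, and the difference of BxPC3 minus Panc327 was -2.64 ± 0.56 (edgeR adjusted p = 6e-05). LINC01521 had 1.78, 1.41 and 1.5 CPM with THZ1 and 3.77, 4.86 and 2.62 CPM with DMSO in BxPC3, the line that made it a member, where it is described without a test. In Panc327 it had 4.34, 3.72 and 4.14 CPM with THZ1, against 2.11, 2.04 and 2.51 CPM with DMSO, a rise of 0.88 ± 0.28 (edgeR adjusted p = 0.00337). With library-size scaling the Panc327 value was 0.55 and no longer called (edgeR adjusted p = 0.0662).

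Members with smaller changes filled the middle of the range. LINC01057 (SLC44A3-AS1) had 97.6, 96.2 and 103.3 CPM with THZ1, against 63.9, 62.3 and 58.3 CPM with DMSO in BxPC3, without overlap, and rose by 0.69 ± 0.07 there and 0.65 ± 0.11 in Panc327 (edgeR adjusted p = 2e-16 and 1.23e-07). LINC01278 rose by 0.56 ± 0.15 in BxPC3 and 1.04 ± 0.16 in Panc327 (edgeR adjusted p = 6.65e-04 and 2.47e-08). LINC00265 fell by 0.73 ± 0.22 in BxPC3 and 1.46 ± 0.21 in Panc327 (edgeR adjusted p = 0.00215 and 2.11e-09). LINC00506 had 55.2, 61.04 and 57.02 CPM with THZ1, against 34.8, 42.5 and 41.8 CPM with DMSO in Panc327. Its rise of 0.54 ± 0.08 there (edgeR adjusted p = 4.76e-09) differed from the -0.16 ± 0.10 in BxPC3 by -0.70 for BxPC3 minus Panc327 (edgeR adjusted p = 6.24e-06).

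**Figure D3:**
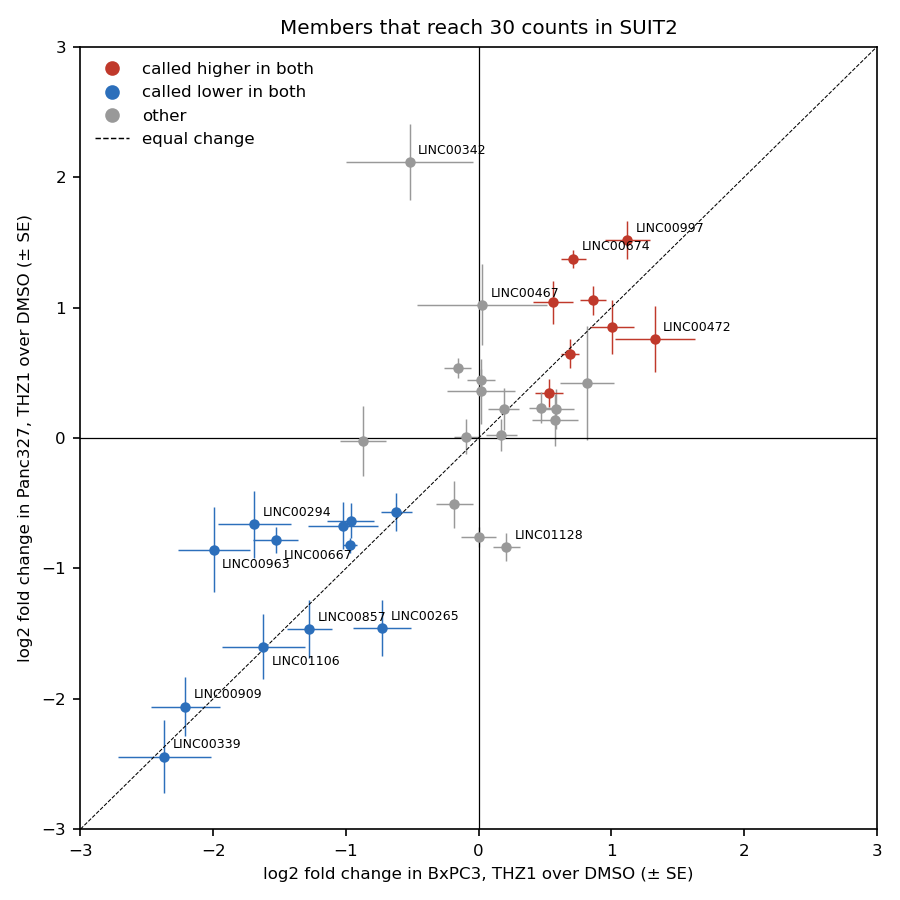
Log2 fold change with THZ1 over DMSO in BxPC3 (x axis) and Panc327 (y axis), bars SE, for 36 of the 40 members that reached 30 counts in SUIT2 (4 with 0 counts in a group, or too few, are not drawn). Members called lower in both (blue) and higher in both (red) lie in the same quadrants, while LINC00342 stands at -0.52 and 2.12 and LINC01128 at 0.21 and -0.84.

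Members now known to encode small proteins included several with no call. LINC00493 (SMIM26) and LINC00998 (SMIM30), small membrane proteins, had changes of 0.17 and -0.09 in BxPC3 and 0.02 and 0.01 in Panc327, none called. LINC00998 stood at 28.1, 36.6 and 30.7 CPM with THZ1, against 36.8, 32.7 and 32.3 CPM with DMSO in BxPC3, so its groups overlapped. LINC00116 (MTLN, mitoregulin of the inner mitochondrial membrane) rose by 0.58 ± 0.14 in BxPC3 (edgeR adjusted p = 1.3e-04), a call that library-size scaling ended (0.19, edgeR adjusted p = 0.226). LINC01420 (NBDY), whose protein binds the mRNA decapping complex of P-bodies, had 34.0, 29.5 and 36.4 CPM with THZ1, against 19.5, 18.4 and 17.2 CPM with DMSO in BxPC3. It rose by 0.86 ± 0.10 there and by 1.06 ± 0.11 in Panc327 (edgeR adjusted p = 7.33e-13 and 1.19e-14), with 0.05 ± 0.11 in SUIT2, and its exons overlap SPIN3. LINC00094 (BRD3OS), whose exons overlap BRD3, fell by 0.62 ± 0.12 in BxPC3 and 0.57 ± 0.14 in Panc327 (edgeR adjusted p = 1.78e-06 and 2.56e-04). Of the 4 tested genes on a list of mitochondrial, membrane and P-body small proteins that leaves out LINC00094, 2 were higher and 0 lower in BxPC3 and 1 higher and 0 lower in Panc327. Their medians were 0.38 and 0.12, beside 0.00 and -0.01 over all genes tested. Called shares over all genes were 35.2% higher and 34.1% lower in BxPC3 and 35.6% and 37.8% in Panc327. The list also leaves out LINC00371 (C13orf42). Over all 6 members that RefSeq lists as protein-coding, 3 were higher and 1 lower in BxPC3, and 1 higher and 1 lower in Panc327.

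Of 20 LINC RNAs with a literature of their own, 13 were tested and 11 were members. Of the 13, 5 were higher and 3 lower in BxPC3, 5 higher and 5 lower in Panc327, and 1 higher and 2 lower in SUIT2, with medians of 0.19, 0.22 and -0.10. The higher call in SUIT2 was LINC00472, a member through SUIT2 alone. The lower calls in Panc327 include LINC00958, a member through Panc327 alone, so these tallies are a description and not a test. Over all genes the called shares were 35.2% higher and 34.1% lower in BxPC3, 35.6% and 37.8% in Panc327 and 6.95% and 7.64% in SUIT2, and the medians were 0.00, -0.01 and 0.01. LINC00152 (CYTOR), a cytoplasmic RNA with a near-identical copy elsewhere on chromosome 2, had 11.6, 12.6 and 13.0 CPM with THZ1, against 6.57, 6.22 and 5.69 CPM with DMSO in BxPC3. It rose by 1.01 ± 0.16 there and by 0.85 ± 0.21 in Panc327 (edgeR adjusted p = 5.63e-08 and 1.62e-04), and reads may be split with that copy. LINC01578 (CHASERR), which represses its neighbour CHD2 in mouse, rose by 0.47 ± 0.09 in BxPC3 (edgeR adjusted p = 2.52e-06), but with library-size scaling this was 0.08 without a call (edgeR adjusted p = 0.462). LINC00963 fell by 1.99 ± 0.27 in BxPC3 (edgeR adjusted p = 2.62e-10). Its fall of 0.86 ± 0.32 in Panc327 (edgeR adjusted p = 0.0143) was 0.76 without DMSO library 2, 0.73 without THZ1 library 1 and 0.74 without THZ1 library 3, each time without a call.

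Levels with DMSO, which the rule used and which are therefore given without a test, differed widely between the lines for several members. LINC00958 had 60.2, 56.0 and 60.3 CPM with DMSO in Panc327 but only 2 counts over 3 libraries in each of BxPC3 and SUIT2. LINC00925, the host transcript of the microRNA gene MIR9-3, averaged 9.5 CPM with DMSO in Panc327 and had 0 counts in BxPC3 and SUIT2 with DMSO, so it was at least 81.8-fold higher than in BxPC3 if the empty group is set at 3 counts in total. LINC01391 had 95 counts with DMSO in SUIT2 and 1 each in BxPC3 and Panc327, and LINC01116 averaged 19.2 CPM in SUIT2 and 6.95 CPM in BxPC3 with 0 counts in Panc327. In BxPC3, LINC01602 was 23.7-fold and LINC01503 5.33-fold above the next line.

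Some of these line-restricted RNAs also differed with THZ1 in their own line, described here with no test. LINC00958 had 11.1, 10.3 and 10.1 CPM with THZ1 in Panc327, against 60.2, 56.0 and 60.3 CPM with DMSO, and its groups lay far apart. LINC00925 had 3.64, 3.52 and 4.74 CPM with THZ1 in Panc327, against 9.87, 8.25 and 10.4 CPM with DMSO. In others the groups overlapped: LINC01503 had 14.9, 11.8 and 15.4 CPM with THZ1 in BxPC3, against 14.4, 12.6 and 11.4 CPM with DMSO, and LINC01116 had 20.7, 19 and 17.1 CPM with THZ1 in SUIT2, against 18.5, 17.3 and 21.7 CPM with DMSO. LINC00162 (PICSAR), an RNA of squamous carcinoma, averaged 10.4 CPM in BxPC3 with DMSO and had 0 counts in every SUIT2 library.

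**Figure D4:**
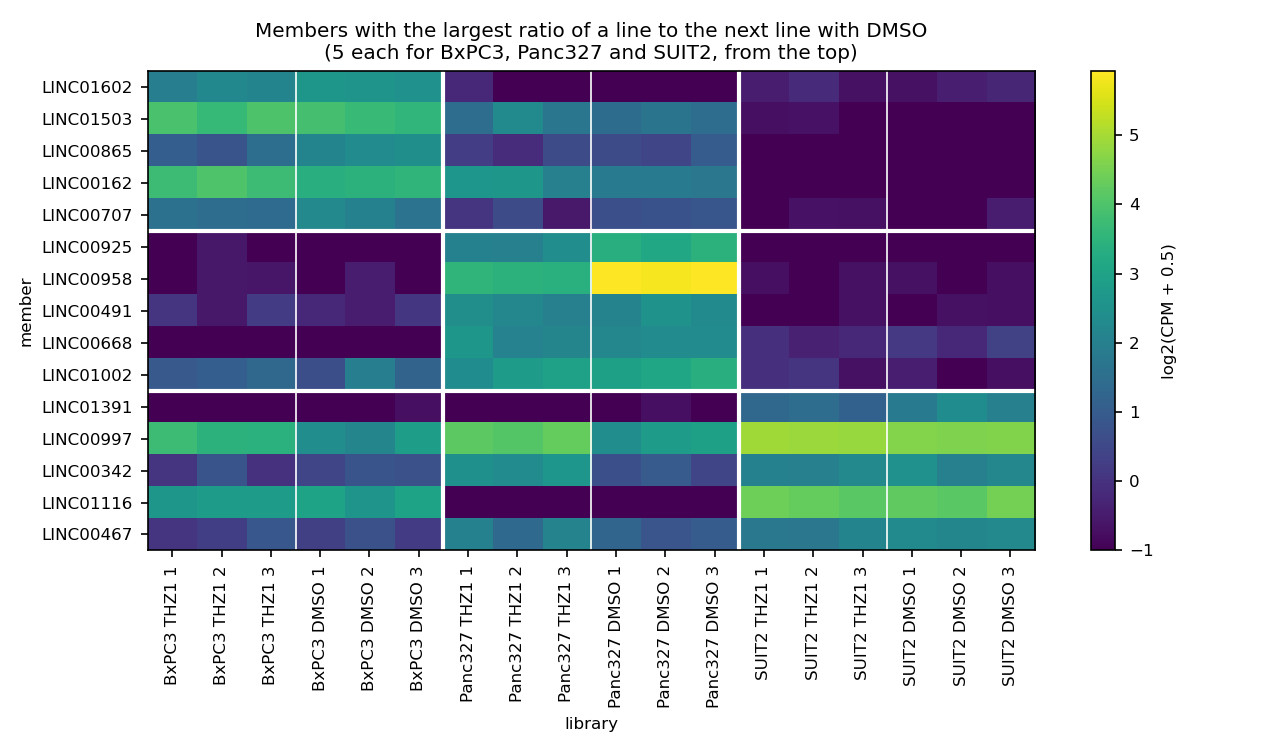
Level of the 15 members with the largest ratio of a line's mean to the next line's with DMSO, 5 per line (rows), in each of 18 libraries (columns, THZ1 left of DMSO within a line), as log2(CPM + 0.5). LINC00958 is brightest in Panc327 with DMSO and darker in Panc327 with THZ1, and LINC01116 is dark in all Panc327 libraries.

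Levels per kilobase of exon placed LINC00657 first and LINC00674 second, with 75.8 and 67.7 CPM per kilobase averaged over the groups. The next were 3 of the small-protein genes, LINC00493, LINC01420 and LINC00998, with 13.8, 12.2 and 11 CPM per kilobase. The exon length of LINC00674 in GENCODE 29, 734 bases, covers less of the locus than RefSeq does, so its level per length is uncertain. Spearman correlations of the log2 fold change with summed exon length over 61 members were -0.07 in BxPC3, -0.12 in Panc327 and 0.15 in SUIT2, and with the DMSO level over 67 members -0.06, -0.24 and -0.03. These describe RNAs from the same libraries and have no p. Among members chosen without the line and with no exon overlap, 6 were higher and 10 lower of 25 in BxPC3, 10 higher and 9 lower of 26 in Panc327, and 0 higher and 5 lower of 28 in SUIT2. With exon overlap, 9 were higher and 7 lower of 26 in BxPC3, 8 higher and 7 lower of 27 in Panc327, and 1 higher and 3 lower of 29 in SUIT2. Both sets stand beside all-gene shares of 35.2% and 34.1%, 35.6% and 37.8%, and 6.95% and 7.64% in the same lines, and the sets were not tested against each other.

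Neighbouring genes were read from the same fit. Of the members, 7 start within 10 kb after the end of a protein-coding gene on the same strand, and 6 start within 1 kb of a protein-coding gene that runs the other way. LINC01089 starts 274 bases from SETD1B, a histone methyltransferase gene with 27.6, 36.8 and 30.2 CPM with THZ1, against 57.3, 70.6 and 61.8 CPM with DMSO in BxPC3. SETD1B fell by 1.01 ± 0.08 there and by 1.12 ± 0.10 in Panc327 (edgeR adjusted p = 7.26e-19 and 4.47e-18), while LINC01089 rose in both lines. HNRNPC, an RNA-binding protein gene ending 2236 bases before LINC00641, rose by 0.60 ± 0.04 in BxPC3 and 0.70 ± 0.04 in Panc327 (edgeR adjusted p = 3.39e-27 and 1.81e-31), while LINC00641 fell. ANKRD10, 8289 bases before LINC00346, rose by 0.53 ± 0.06 and 0.90 ± 0.07 (edgeR adjusted p = 1.71e-12 and 3.18e-21) where LINC00346 fell.

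LINC01137 (LITATS1), described as a restraint on TGF-beta signalling, starts 141 bases from ZC3H12A, the gene of the endoribonuclease Regnase-1. ZC3H12A rose by 1.47 ± 0.07 in BxPC3 and 0.92 ± 0.11 in Panc327 (edgeR adjusted p = 1.06e-32 and 3.41e-12). LINC01137 fell by 1.37 ± 0.48 in Panc327 (edgeR adjusted p = 0.00806), with 1.13 and an adjusted p of 0.05 without DMSO library 3 and 1.04 and 0.0759 without THZ1 library 1. In BxPC3, through which it is a member, it had 1.24, 2.65 and 1.99 CPM with THZ1, against 6.21, 5.09 and 5.69 CPM with DMSO. In SUIT2 it had 1.01, 2.30 and 1.39 CPM with THZ1, against 2.67, 3.78 and 3.09 CPM with DMSO, without overlap, and fell by 1.05 ± 0.29 (edgeR adjusted p = 0.0082), a call lost without DMSO library 2 (0.92, adjusted p = 0.0561) or THZ1 library 1 (0.81, adjusted p = 0.0865). ZC3H12A had no call in SUIT2 (0.14 ± 0.13, edgeR adjusted p = 0.508).

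Some other pairs stood on the same side of 0 in a line and some did not. PATZ1 beside LINC01521 fell by 1.14 ± 0.11 in BxPC3 and 2.04 ± 0.10 in Panc327 (edgeR adjusted p = 8.09e-17 and 7.23e-34), so it stood on the same side as LINC01521 in BxPC3 and on the other side in Panc327. In SUIT2 PATZ1 fell by 0.30 ± 0.09 and LINC01521 by 0.94 ± 0.30 (edgeR adjusted p = 0.0142 and 0.0203), and the LINC01521 call was lost without DMSO library 1 or 2 or THZ1 library 2 or 3 (0.77 to 0.88). ZNF407, starting 638 bases from LINC00909, fell by 0.29 ± 0.12 in BxPC3 (edgeR adjusted p = 0.0352) where LINC00909 fell by 2.21, and had no call in Panc327 (-0.19 ± 0.15, edgeR adjusted p = 0.245). TRAF5, ending 7857 bases before LINC00467, fell by 1.65 ± 0.20 in Panc327 (edgeR adjusted p = 1.25e-11), where LINC00467 rose by 1.02 ± 0.31 (edgeR adjusted p = 0.00236). FOXL2, a forkhead factor gene ending 204 bases before LINC01391, shared its restriction to SUIT2, with 90.05, 75.2 and 83.3 CPM with THZ1 and 105.5, 107.7 and 111.7 CPM with DMSO there, and 33 counts or fewer in each group of the other lines. In SUIT2 FOXL2 fell by 0.38 ± 0.06 (edgeR adjusted p = 1.99e-06), and LINC01391, described without a test, had 2.02, 2.30 and 1.74 CPM with THZ1, against 3.04, 4.64 and 3.54 CPM with DMSO.

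**Figure D5:**
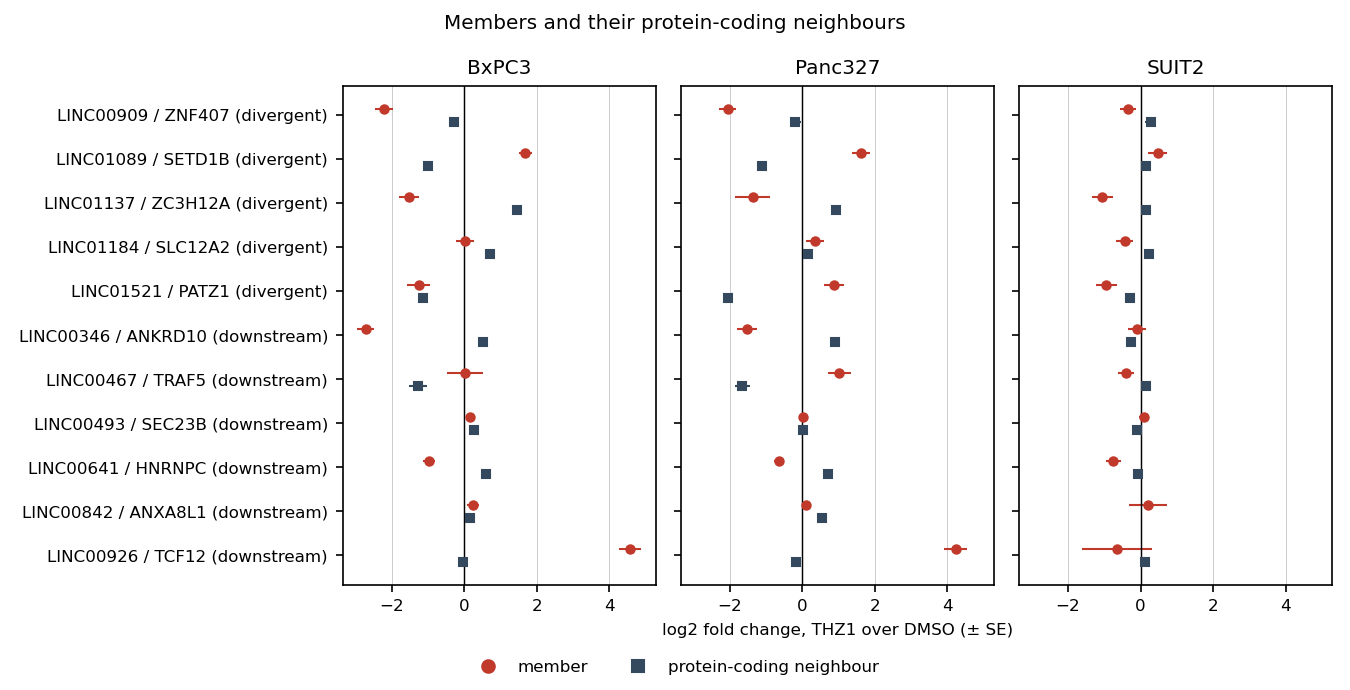
Log2 fold change with THZ1 over DMSO (x axis, bars SE) of 11 members (red circles) and their protein-coding neighbours (grey squares) in the 3 lines; divergent pairs start within 1 kb of each other and downstream members within 10 kb of the neighbour's end. LINC01089 stands at 1.69 and SETD1B at -1.01 in BxPC3, and LINC00926 at 4.58 with TCF12 at -0.02.

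Other long noncoding RNAs were read from the same fit. Of 29 tested on a list of 39 well-known ones, 11 were higher and 6 lower in BxPC3, 13 higher and 9 lower in Panc327, and 1 higher and 3 lower in SUIT2, with medians of 0.30, 0.33 and -0.04. All genes had 35.2% higher and 34.1% lower in BxPC3, 35.6% and 37.8% in Panc327, and 6.95% and 7.64% in SUIT2, with medians of 0.00, -0.01 and 0.01. TUG1 had 84.3, 78.0 and 88.4 CPM with THZ1, against 201.3, 191.1 and 188.6 CPM with DMSO in BxPC3, and fell by 1.21 ± 0.06 (edgeR adjusted p = 1.1e-33). MALAT1, a stable nuclear RNA, rose by 0.70 ± 0.12 in BxPC3 and 0.91 ± 0.11 in Panc327 (edgeR adjusted p = 1.1e-04 and 1.65e-06). LINC-PINT rose in all 3 lines, by 1.63 ± 0.24, 1.26 ± 0.43 and 0.89 ± 0.20 (edgeR adjusted p = 3.13e-09, 0.00621 and 9.2e-04).

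Genes of RNA decay, whose products clear many noncoding transcripts, moved both ways. Of the 31 genes on a list of RNA decay factors and regulators, 10 were higher and 17 lower in BxPC3, 11 higher and 18 lower in Panc327, and 2 higher and 2 lower in SUIT2, with medians of -0.21, -0.46 and -0.01. The shares of all genes called were 35.2% higher and 34.1% lower in BxPC3, 35.6% and 37.8% in Panc327, and 6.95% and 7.64% in SUIT2. EXOSC3, an RNA exosome subunit, had 11.4, 10.6 and 16.4 CPM with THZ1, against 46.9, 48.1 and 46.0 CPM with DMSO in BxPC3. It fell by 1.87 ± 0.10 there and 1.96 ± 0.13 in Panc327 (edgeR adjusted p = 6.76e-30 and 2.75e-24). EXOSC2, EXOSC4, EXOSC6, EXOSC8, EXOSC9 and EXOSC10 were also called lower in both lines. EXOSC5 was called higher in BxPC3, Panc327 and SUIT2, by 0.49 ± 0.10, 0.59 ± 0.09 and 0.32 ± 0.11. EXOSC1 and EXOSC7 were called higher in Panc327 only, by 0.38 ± 0.09 and 0.40 ± 0.09. ZCCHC8 and RBM7 of the nuclear exosome targeting complex fell by 0.98 ± 0.10 and 0.83 ± 0.11 in BxPC3 and by 1.71 ± 0.10 and 2.53 ± 0.19 in Panc327. SRRT, which joins the cap-binding complex to decay, rose by 1.54 ± 0.04 and 0.91 ± 0.04, and the decapping enzyme gene DCP2 by 1.26 ± 0.09 and 0.75 ± 0.09 (edgeR adjusted p at most 1.18e-10 for these 4 genes). The part of these changes in the levels of the members was not tested.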

How the data were processed

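Polyadenylated RNA from 18 libraries was measured by sequencing with a kit that does not mark strand, per the labels' protocols. The authors deposited whole-number read counts per gene symbol; bcl2fastq 1.8.4, TopHat2 2.1.0, HTSeq 0.6.1 and build hg38 are named in the submitters' processing notes, while the gene annotation and the counting mode are unstated in the sources at hand. The 5 summary entries of each file (no feature, several places and the like) entered neither library sizes nor tests, and 8.11% to 11.3% of records had no feature. Library totals limit low members to few counts.

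Counts of 14011 symbols passing edgeR's filter (minimum 10, total 15) were fitted with edgeR 4.0.16 quasi-likelihood (robust, 6 group means, TMM, R 4.3.3), which was tested on simulated data. Errors of log2 fold changes are SE, calls are Benjamini-Hochberg adjusted p under 0.05, and CPM errors are SD. DESeq2 1.42.0, other scalings, no filter, only the compared lines, a replicate block, a floor of 60 counts and leaving out each library were alternatives. Positions and names come from RefSeq (GRCh38.p14), exon structures from GENCODE 29.

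The members and gene lists were chosen with earlier results of these data known. Genes were named by rule: per line and direction the 6 called members with the largest change, at least 30 counts and separate libraries; 4 per direction for differences between lines; the 10 highest levels per length; 5 per line by ratio; members called alike in all 3 lines; members of the lists; and neighbours.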

Additional observations from a re-analysis of the deposited data

Results flagged for a closer look

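The response to THZ1 differed between lines for the following members by the test of the difference itself (edgeR quasi-likelihood, adjusted over all genes). For BxPC3 minus Panc327 the log2 difference was 1.05 for LINC01128, 0.76 for LINC00673 and -1.14 for LINC00963, the last with calls lost without several libraries (-0.88 without Panc327 THZ1 library 2).

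For BxPC3 minus SUIT2 it was 5.22 for LINC00926, 1.21 for LINC01089 and 1.09 for LINC00662, and -2.62 for LINC00346, -1.96 for LINC00847, -1.94 for LINC00339 and -1.86 for LINC00909. The LINC00662 difference was 0.86 without SUIT2 DMSO library 2 (adjusted p = 0.0647).

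For Panc327 minus SUIT2 it was 4.87 for LINC00926, -2.02 for LINC00339, -1.71 for LINC00909, -1.52 for LINC00847 and -1.42 for LINC00346.

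Outside the gene counts, the share of records aligned to several places stood at 22.8% in BxPC3 and 52.8% in Panc327 with THZ1, above the 12.8% and 13.6% with DMSO. Its part in the member values was not tested.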

How the results depend on the processing

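Member counts, higher and lower with THZ1, were 16 and 19 of 57 in BxPC3, 19 and 19 of 58 in Panc327 and 1 and 10 of 63 in SUIT2. With library size only, higher calls were 10 in BxPC3, 7 for the response of BxPC3 over SUIT2 and 9 for Panc327 over SUIT2. Of all genes called with that scaling, 26.8%, 22.8% and 28.1% were higher in these 3 comparisons, against 50.8%, 49.7% and 46.7% with TMM. With a floor of 60 counts, 10 were higher in BxPC3 and 7 lower for Panc327 minus SUIT2. Fewer members reach that floor, so these 2 counts cannot be compared with those over more members. With DESeq2, SUIT2 had 0 higher and 3 lower members. No share over all genes by DESeq2 stands beside these counts, so they cannot be read as a result about the members. Over all members, chosen through any line, SUIT2 had 2 higher by edgeR. Without 1 library, higher and lower calls ranged from 16 to 18 and 18 to 20 in BxPC3, 17 to 21 and 15 to 19 in Panc327, and 0 to 1 and 4 to 6 in SUIT2; differences ranged from 2 to 3 and 5 to 8 for BxPC3 minus Panc327, 12 to 14 and 10 to 13 for BxPC3 minus SUIT2, and 13 to 15 and 10 to 13 for Panc327 minus SUIT2. Fewer libraries or members enter these fits, and for the other settings the cause was not tested. In no setting did a named member reverse, and of the calls re-fitted without 1 library 1070 were kept and 88 lost, while 16 were lost with library size only and 15 with DESeq2.

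Replicate numbers are shared between groups, and deviations of same-numbered samples were weakly related at most (r from -0.14 to 0.06 within lines). In Panc327 same-numbered pairs had r of 0.048, 0.063 and 0.055, above all unlike pairs there (highest 0.018), while in BxPC3 and SUIT2 they were negative. With so few pairs per line, the values cannot decide whether the numbers mark a pairing. With the replicate block, 16 were higher and 19 lower in BxPC3, 19 and 19 in Panc327, and 1 and 9 in SUIT2. Low counts limit LINC00926 in SUIT2 and members near the floor.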
